A study of Mus musculus with 2 samples.

Results

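The 35 lysosomal genes examined here encode the enzymes, transporters and membrane proteins of the organelle that degrades lipids, glycans, glycogen and proteins, together with Gnptab, which starts the mannose 6-phosphate tag on its enzymes, and Tfeb, a transcription factor of lysosomal genes. They were chosen by name, with earlier results of these data known, from all 22225 protein-coding genes of GENCODE M1. They held 13 of the 4409 common GATA4 occupied sites (OS). An OS was counted for a gene when its midpoint lay in the gene body or within 10 kb of it. The OS come from 1 GATA4 ChIP-seq sample of whole liver from C57BL/6 x Sv129 mice, aged 2 to 3 months per the labels, immunoprecipitated with the GATA4 C-20 antibody, and from 1 input sample of the same tissue, strain and age with no antibody. Per the methods, biological replicates, each of whole liver from a pair of mice, were called separately and merged, and peaks were kept by the agreement of their ranks. The files used here hold the resulting lists and no values per replicate, so animals could not be compared. The input entered the peak calls as background and has no file of its own here. The 3 peak lists, from SPP, from MACS2 and their intersection (the common list, with SPP coordinates), hold positions on mm9 but no read counts, so that the depth behind a single OS is unknown.

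GATA4 is a zinc finger transcription factor that binds the motif WGATAR, which stands for 4 strings of letters. Those that begin with A are AGATAA and the variant ending in G, AGATAG, while those that begin with T are TGATAA and, again ending in G, the variant TGATAG. In the liver, lysosomes clear endocytosed lipoproteins, glycogen and worn proteins, and inherited loss of single enzymes causes storage diseases, several of which enlarge the liver. Acid lipase, NPC2 and NPC1 act in that order on the cholesterol that arrives with lipoproteins. Whole liver contains hepatocytes, endothelial cells, Kupffer cells, stellate cells and cholangiocytes, and a peak list does not tell in which of them a site was bound. A common OS was found at 5 of 10 hepatocyte marker genes (Alb, Cyp7a1, F10, Hnf4a and Ttr, Wilson 95% interval 23.7 to 76.3%). The same held for 7 of 8 liver endothelial marker genes (Stab1, Stab2, Tek, Kdr, Pecam1, Cdh5 and Clec4g, 52.9 to 97.8%). The marker lists were chosen with earlier results of these data known, so they are no independent check of the tissue. Of the Kupffer cell markers 0 of 8 had one (Wilson 95% upper bound 32.4%), of the cholangiocyte markers 0 of 5 and of the stellate cell markers 0 of 5 (43.4% each). Over all other protein-coding genes the share was 13.7%, which lies below these upper bounds, so the lists without an OS say nothing about whether such cells were present.

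The sequences below are shown because they carry the WGATAR letters on which the description of the sites turns. All are of the NCBI Build 37 reference, the build of the deposited mm9 coordinates, and are written 5′ to 3′ on the coding strand of the gene. Capitals mark WGATAR or its reverse complement. The first group holds 30-base stretches of the OS with the lowest list numbers, which lie at or near the starts of Arsa (arylsulfatase A, which removes sulfate from sulfatides), Npc2 (a soluble cholesterol carrier of the lysosome) and Asah1 (acid ceramidase).
Arsa, OS 21, nearer the midpoint, chr15:89306804-89306833, minus strand: cccaaccggcgcAGATAAggatcgggagca
Arsa, OS 21, farther from the midpoint, chr15:89306905-89306934, minus strand: agcaggagagccAGATAGctgtagtgctgc
Npc2, OS 184, upstream of the TSS, chr12:86114107-86114136, minus strand: ttgggtatagcgAGATAAgagggctttgat
Npc2, OS 184, in exon 1, chr12:86113980-86114009, minus strand: agagatgggcggAGATAAagggcgagctgc
Npc2, OS 184, farthest into exon 1, chr12:86113860-86113889, minus strand: tccgggacaagtTTATCTtgtgactgctcg
Asah1, OS 206, chr8:42460063-42460092, minus strand: ggcccggcgcctCTATCTctggcgtgtccc

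The second group holds intragenic OS. Manba (β-mannosidase) and Lamp1 (an abundant glycoprotein of the lysosomal membrane) are shown for the 3 WGATAR matches in each, a choice made after the matches were counted. Lipa (lysosomal acid lipase) is shown as the gene with the most OS, by the central 101 bases of each.
Manba, OS 3532, chr3:135161934-135162034, plus strand: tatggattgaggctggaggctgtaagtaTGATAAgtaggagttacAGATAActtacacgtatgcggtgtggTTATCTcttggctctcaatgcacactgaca
Lamp1, OS 647, whole, chr8:13163648-13163838, plus strand: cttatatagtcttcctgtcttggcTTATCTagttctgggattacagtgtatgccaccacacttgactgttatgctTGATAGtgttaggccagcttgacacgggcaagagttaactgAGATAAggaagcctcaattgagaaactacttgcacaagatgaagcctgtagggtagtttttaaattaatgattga
Lipa, OS 2875, chr19:34597967-34598067, minus strand: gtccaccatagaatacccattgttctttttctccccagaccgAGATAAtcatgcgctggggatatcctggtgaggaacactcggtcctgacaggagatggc
Lipa, OS 2829, chr19:34593513-34593613, minus strand: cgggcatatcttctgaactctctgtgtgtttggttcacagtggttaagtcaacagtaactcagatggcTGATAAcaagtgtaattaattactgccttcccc
Lipa, OS 4001, chr19:34573444-34573544, minus strand: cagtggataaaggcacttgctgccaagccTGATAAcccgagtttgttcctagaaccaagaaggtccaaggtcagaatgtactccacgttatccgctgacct
Lipa, OS 3081, chr19:34571025-34571125, minus strand: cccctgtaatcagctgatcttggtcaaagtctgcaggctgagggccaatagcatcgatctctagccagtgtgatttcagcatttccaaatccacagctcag
Of these 4 Lipa stretches, 3 hold 1 WGATAR match each, and that of OS 3081 holds none. The 2 stretches of the Gaa OS, in which capitals mark a bare GATA (not part of WGATAR) and the E-box letters CACGTG, are given with that gene.

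Common OS were found at 9 of the 35 lysosomal genes (25.7%, Wilson 95% interval 14.2 to 42.1): Arsa, Hexa, Asah1, Gaa, Manba, Lipa, Npc1, Npc2 and Lamp1. Among the other 22190 protein-coding genes, 13.7% (3031 genes) had one. The intervals cover counting error only. The list was not tested as a set, since its genes were chosen with earlier results of these data known and not drawn at random. By role, OS lay at 3 of 4 genes of lipid and lipoprotein handling, 3 of 6 sphingolipid and sulfatide hydrolases, 2 of 5 glycogen and glycoprotein glycosidases and 1 of 4 membrane proteins. None was found at the 6 cathepsins and peptidases, the 5 glycosaminoglycan hydrolases, the 2 acid phosphatases, Psap, Gnptab or Tfeb. The Wilson 95% upper bounds of the cathepsins and peptidases (39.0%) and the glycosaminoglycan hydrolases (43.4%) lie above the 13.7% of other genes. These lists thus cannot be told apart from other genes. Of the cathepsins among the further genes below, named after their values were seen, Ctsc, Ctsk and Ctss had a common OS, and Ctsa, Ctsf and Ctso had none. The plot of distances shows each gene with its nearest OS, by role.

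**Figure D1:**
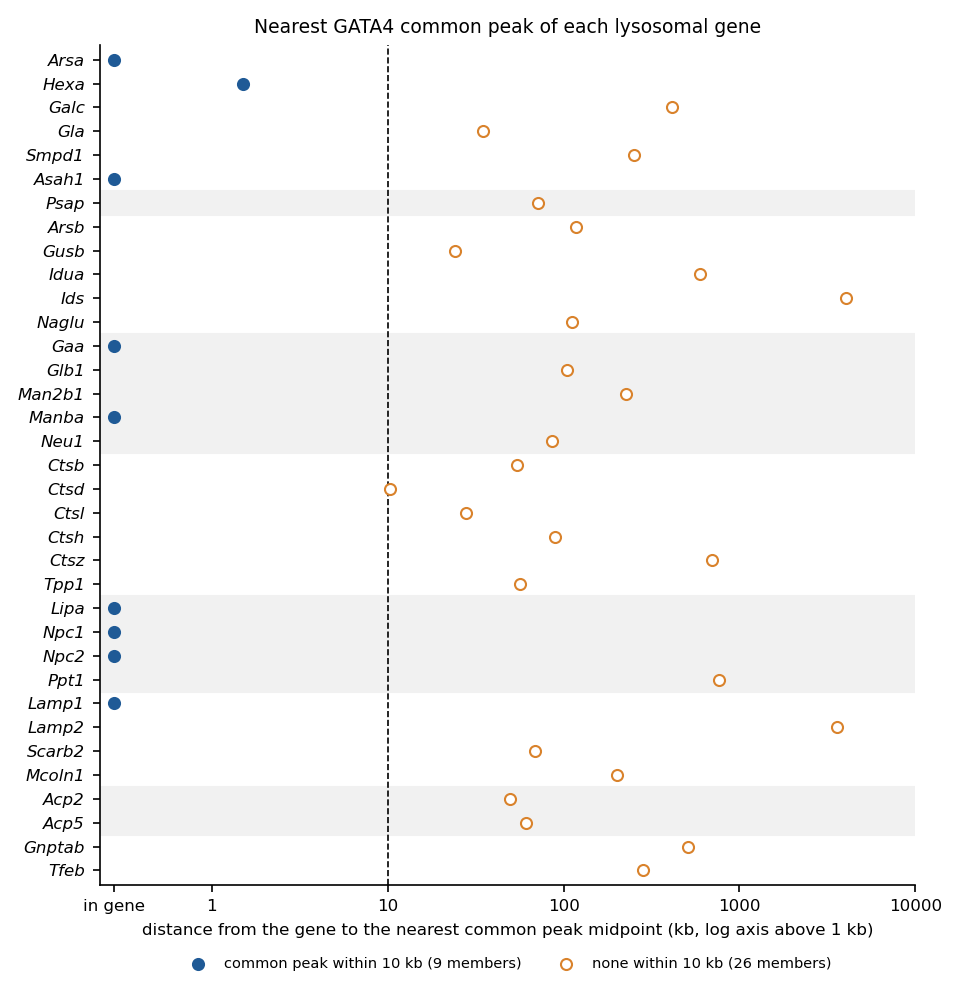
Distance in kb from each of the 35 lysosomal genes to the midpoint of its nearest common OS, on an axis that is logarithmic above 1 kb, with genes grouped by role (shading) and the 10 kb limit dashed. Filled points are the 9 genes with an OS within 10 kb, 8 of them in the gene itself, and open points the 26 others, from Ctsd at 10.4 kb to Ids at 4020 kb.

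Gene length bears on such counts, because a longer window catches more OS. The lysosomal genes had a median length of 21.9 kb and the other protein-coding genes 15.5 kb. When all genes were split by length into 3 classes of like size, 1 of 5 lysosomal genes of the shortest class (up to 7.51 kb), 4 of 19 of the middle class (up to 29.5 kb) and 4 of 11 of the longest class had a common OS. The shares for other genes were 6.66%, 12.5% and 21.8%, in that order. Per length of sequence, the windows of the lysosomal genes held 7.21 OS per Mb and those of the other genes 2.53. Lipa alone supplied 4 of the 13 OS, and without it the value was 5.15 per Mb, an alternative added after the data were seen.

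These 9 genes were named by both peak callers. Each of the 13 OS at lysosomal genes met a MACS2 peak, as the common list requires. No SPP peak at these genes lay outside the common list (13 of 13 shared, Wilson 95% interval 77.2 to 100%). Elsewhere 91.6% of the SPP peaks met a MACS2 peak, a share inside that interval. With the SPP list 9 lysosomal genes were again occupied, beside 14.5% of other genes. The MACS2 list gave 11 genes (31.4%, Wilson 95% interval 18.6 to 48.0) beside 17.4% of other genes, the additions being Arsb, for arylsulfatase B, and Lamp2, for a second membrane glycoprotein. The Arsb peak lay past the end of the gene, 179732 bp from its TSS, and was number 5142 of the 5867 in the MACS2 list. The Lamp2 peak was number 5803 and lay inside the gene, 54264 bp from the TSS, past the end of the coding transcript taken to describe it but within another.

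Of the 13 OS, 12 had their midpoint inside the lysosomal gene itself. The remaining OS, at Hexa, lay 1510 bp upstream. Counting gene bodies alone thus left 8 of the 35 genes, beside 7.67% of other genes, and a window of 5 kb left all 9, beside 11.3%. All 9 also remained when each OS was given only to the gene with the nearest TSS, a rule that left 9.88% of other genes. For 10 of the 13 the nearest TSS of any protein-coding gene was that of the lysosomal gene, and 10 lay in the window of no other protein-coding gene. Matching shares for OS at other genes are not given, so these counts have no background beside them. In all, 3 OS (23.1%, Wilson 95% interval 8.18 to 50.3) had their midpoint within 1 kb of a protein-coding TSS. The same held for 14.7% of the other 4396 common OS. The 13 OS were taken for lying at a gene and the others were not. Closeness to a TSS was thus partly set by that choice, and these shares are not like for like. The map of the 9 genes shows where each OS lies.

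**Figure D2:**
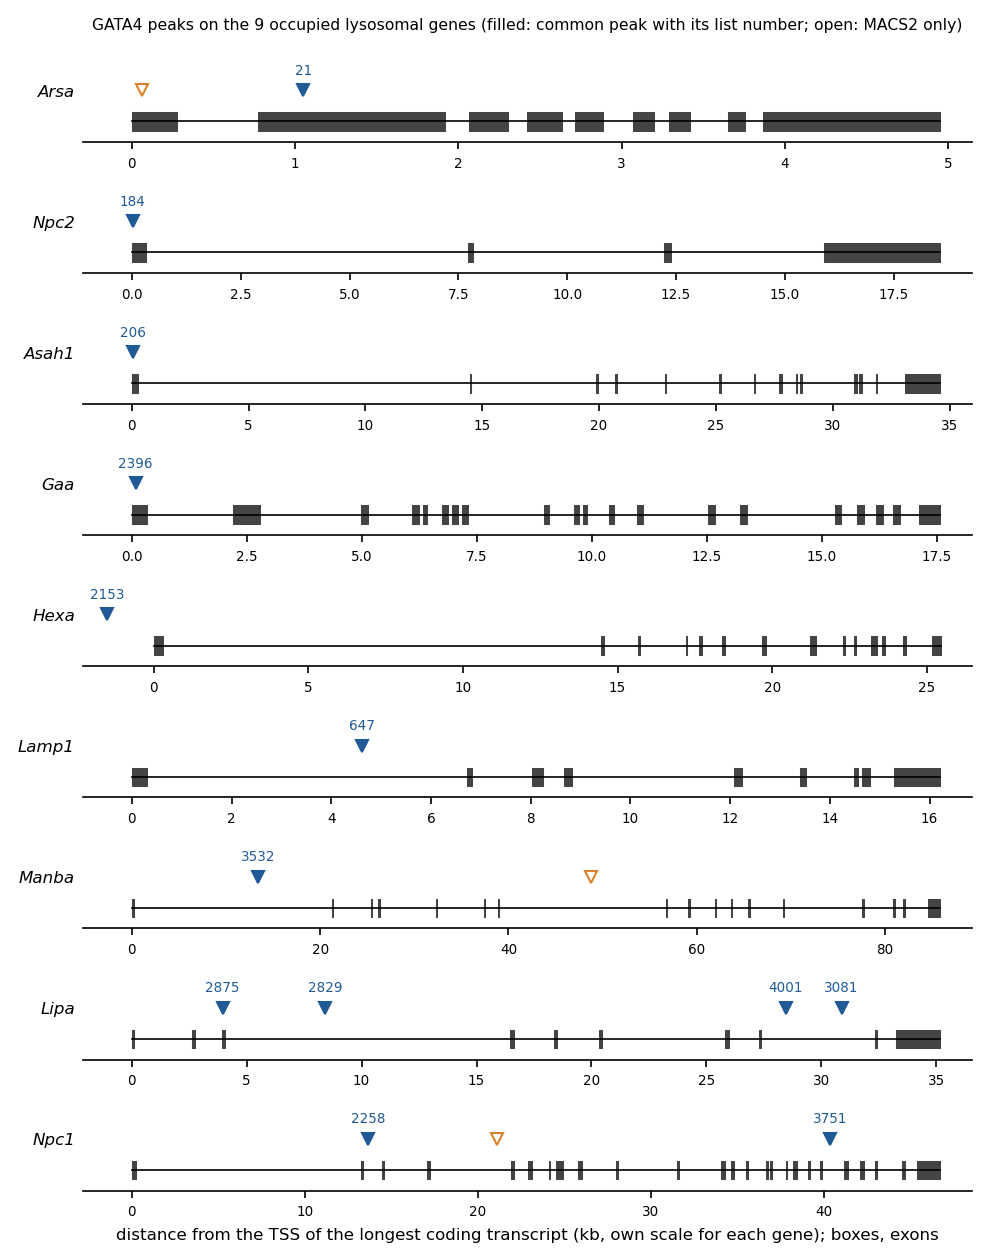
Exons (boxes) of the longest coding transcript of the 9 occupied lysosomal genes, drawn from the TSS in kb with a scale of its own for each gene, and the midpoints of common OS (filled triangles with their list number) and of peaks of MACS2 alone (open triangles). OS at Npc2, Asah1 and Gaa sit at the TSS, those at Arsa and Hexa within 1510 bp of it, and those at Lamp1, Manba, Lipa and Npc1 in the body of the gene.

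Arsa had the OS with the lowest number of the list among these genes, 21 of 4409. The MACS2 peak that it meets had number 3 of 5867. It spans chr15:89306646-89306965 (320 bp) with its midpoint 1051 bp downstream of the Arsa TSS, in exon 2 of 9, in the 5′ untranslated part of the longest coding transcript. A pair of TSS of C230037L18Rik, a lincRNA read from the opposite strand, lie inside the OS, 122 and 138 bp from its midpoint. The OS held 2 WGATAR matches, AGATAA at 13 bp and AGATAG at 114 bp from the midpoint, which are the Arsa stretches printed above. A further MACS2 peak without an SPP peak, number 2707, covered the Arsa TSS itself, with its midpoint 65 bp inside the gene and 1 WGATAR match.

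Npc2 lay under number 184 of the common list and number 22 of the MACS2 list. Its OS was the widest at the lysosomal genes (451 bp, chr12:86113821-86114271) and was centred 16 bp downstream of the Npc2 TSS. The TSS of Isca2, a gene of iron-sulfur cluster assembly that is transcribed in the other direction, is only 158 bp from that of Npc2, and the OS covered both. It held 3 AGATAA matches spread over 247 bp, at 172, 52 and 75 bp from the midpoint. The site thus cannot be given to Npc2 rather than Isca2 by position.

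Asah1 had OS number 206 (number 172 of the MACS2 list), which spans chr8:42459963-42460203 and is centred 44 bp downstream of the TSS in exon 1. It held a single WGATAR match, AGATAG, 6 bp from the midpoint. No other protein-coding gene had a window over this OS.

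Gaa encodes acid α-glucosidase, the glycogen-degrading enzyme of the lysosome. Its OS, number 2396 of the common and 1801 of the MACS2 list, spans chr11:119129210-119129360. It lies between alternative starts of the gene, 55 bp upstream of one TSS and 84 bp downstream of that of the longest transcript. The window of another protein-coding gene, Ccdc40, also held this OS, though the nearest protein-coding TSS was that of Gaa. The Gaa OS was 1 of 2 OS at lysosomal genes without WGATAR. It held 1 GATA, 17 bp from the midpoint, preceded by C and followed by A, and thus a GATAR but not a WGATAR match. The only CACGTG found in the 13 OS lay 79 bp along from this GATA. These are the letters of the E-box to which basic helix-loop-helix factors such as TFEB bind.
Gaa, OS 2396, the bare GATA, chr11:119129254-119129283, plus strand: tagggggcgcagcGATAacactcacacgga
Gaa, OS 2396, the E-box, chr11:119129334-119129363, plus strand: ccgcccacagacCACGTGacccacgctgcc

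Hexa, for the α subunit of β-hexosaminidase A, had OS number 2153 (MACS2 number 3289) upstream of the gene at chr9:59385891-59386038. Its 1 WGATAR match, TGATAA, lay 36 bp from the midpoint, and 2 other GATA occurred in the same 148 bp. Lamp1 had OS number 647 (MACS2 number 1119) at chr8:13163648-13163838 in intron 1 of 8, 4608 bp downstream of the TSS. Of the 3 matches in it, the outer pair read AGATAA and the middle one read TGATAG, and they spanned 92 bp. Manba had OS number 3532 (MACS2 number 3137) at chr3:135161825-135162144 in intron 1 of 16, 13409 bp downstream. Its matches were packed within 43 bp, with the closest 3 bp from the midpoint, as the Manba stretch above shows. A MACS2 peak alone, number 5759, lay in intron 7.

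Lipa was the lysosomal gene with the most OS. Its 4 OS were number 2875 in coding exon 3 (chr19:34597961-34598073), 2829 in intron 3 (chr19:34593404-34593723), and 4001 (chr19:34573335-34573654) and 3081 (chr19:34570916-34571235) in intron 8. They lay 3947, 8401, 28470 and 30889 bp downstream of the TSS. The OS thus fell into a 5′ pair 4454 bp apart and a 3′ pair 2419 bp apart, with 20069 bp between the pairs. The 3′ pair was nearer to the TSS of Ch25h, which encodes cholesterol 25-hydroxylase and starts 17183 bp past the end of Lipa, than to that of Lipa. At least 4 common OS were present at 0.32% of the other protein-coding genes (71 genes). All 4 Lipa OS stood among the later 50% of the common list and had MACS2 numbers from 4021 to 4694.

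Npc1, the membrane protein that takes up cholesterol from NPC2, had 2 OS on chromosome 18. OS number 2258 (MACS2 number 2070) lay in intron 2 of 24, 13577 bp downstream of the TSS, and held 1 TGATAA match 2 bp from the midpoint. OS number 3751 (MACS2 number 5062) lay in intron 20, 26689 bp farther along, and held 1 AGATAA match. Its nearest protein-coding TSS was that of 3110002H16Rik, 16470 bp away. A MACS2 peak without an SPP peak, number 5164, lay between them in intron 4 and held 4 WGATAR matches. At least 2 common OS, as at Lipa and Npc1, were present at 5.71% of the lysosomal genes (2 of 35) and at 3.01% of the other genes.

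Of the 13 OS, 11 (84.6%, Wilson 95% interval 57.8 to 95.7) held WGATAR on either strand, which is close to the 82.9% of the other common OS. With WGATA or GATAR accepted, 12 OS (92.3%) and 92.9% of the others had a match. There were 18 WGATAR matches in all, of which 10 read AGATAA, 5 TGATAA, 2 AGATAG and 1 TGATAG. In 10 of the 13 OS a match lay within 40 bp of the midpoint. The exceptions were OS 3081 of Lipa, with no GATA at all, the Gaa OS, with a bare GATA, and the Npc2 OS, whose closest match was at 52 bp. The plot of motif positions shows the matches in each OS.

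**Figure D3:**
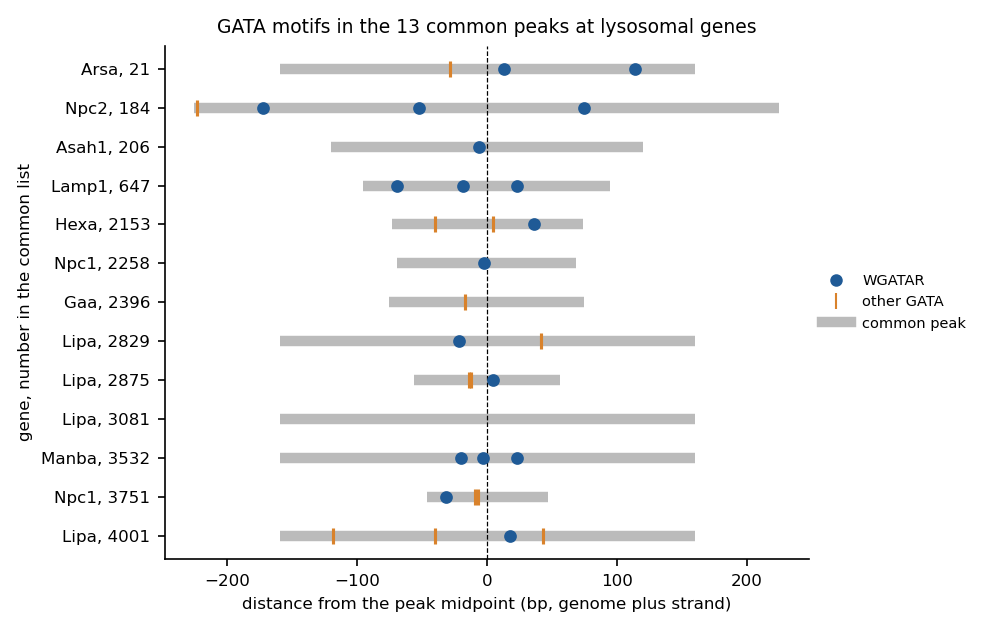
Positions of WGATAR matches (points) and of other GATA (ticks) in the 13 common OS at lysosomal genes (grey bars, to scale), in bp from the peak midpoint on the plus strand of the genome, ordered by list number. Matches in 10 OS lie within 40 bp of the midpoint, which was not counted for other OS, and OS 3081 of Lipa has none.

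Letters of other factors were searched as well. The ETS letters CCGGAAG occurred in 2 OS (15.4%), Arsa and Npc2, and in 4.91% of the other common OS. The AP-1 letters TGANTCA were also found in 2 (15.4%), Hexa and Manba, against 7.53% of the others, and the C/EBP letters TTGCNNAA in 3 (23.1%), Npc2, Lamp1 and OS 4001 of Lipa, against 12.6%. The FOX letters TGTTTAC were in 0 of 13 (Wilson upper bound 22.8%) and in 6.28% of the others, and the HNF4 letters CAAAGTCCA in 0 of 13 and 1.16%. Both strands were searched for exact matches. The Wilson 95% interval of each of these 5 shares at the lysosomal genes included the share of the other OS.

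Among these 13 OS, base composition differed with position. The 5 OS within 2 kb of a TSS of the gene, a limit set after the positions were seen, had a GC content of 50.7 to 69.7% and a CpG observed to expected ratio of 0.215 to 1.02. The Hexa OS, the only one of them outside the gene, was the lowest in both, and the others began at 62.5% GC. The 8 OS farther inside the genes had 40.3 to 51.8% GC and CpG ratios of 0 to 0.45, so that the 2 groups overlapped through Hexa. Of these 8, 4 were at Lipa alone. The other common OS were not split by position, so whether the pattern is particular to these genes is unknown. Over all 13 OS the median GC content was 50.7%, and over the other common OS 49.4%.

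The score of every deposited peak is 1000, so the only order in the files is the number of a peak in its list. Per the methods, the IDR step ordered the SPP calls on signal and the MACS2 calls on their p-values, but the files do not say whether the numbers follow that order. The median number in the common list was 2396 for OS at lysosomal genes and 2203.5 for the others. Of the 13, 5 stood in the first 50% of the list. OS within 2 kb of the TSS had numbers of 21 to 2396 (median 206, n = 5) and those farther inside genes 647 to 4001 (median 2978, n = 8), so that the ranges overlapped. In the MACS2 list the numbers of the same 2 groups were 3 to 3289 and 1119 to 5062. Arsa, Npc2 and Asah1 were early in both lists, and Lipa and the intron 20 OS of Npc1 late in both, as the plot of list numbers shows. A width of 320 bp, the commonest among SPP peaks, was that of 5 of the 13 (38.5%) and of 25.5% of the other common OS.

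**Figure D4:**
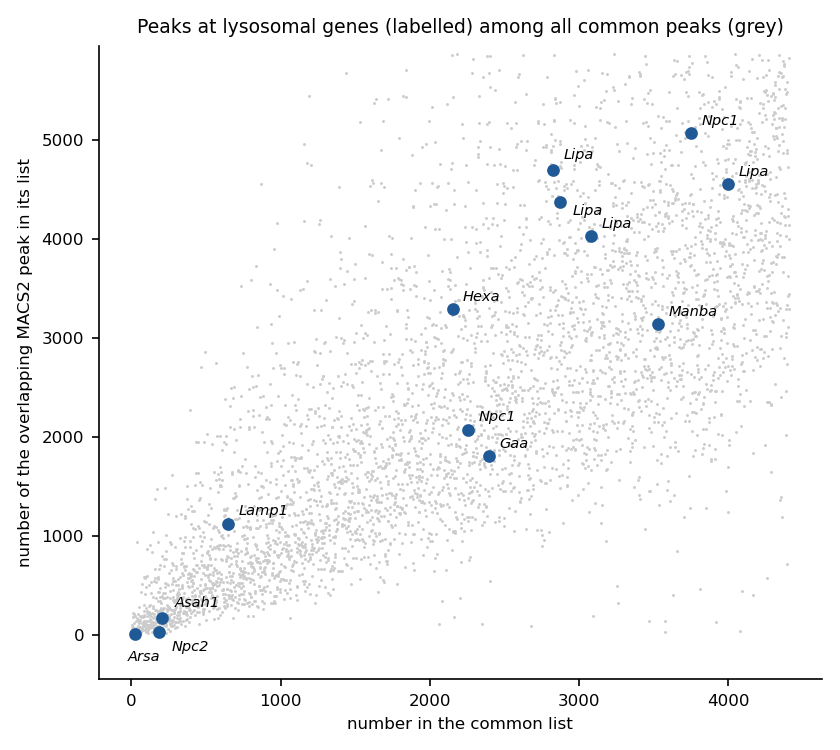
Number of each common OS in the common list (horizontal axis) and of the MACS2 peak it meets in the MACS2 list (vertical axis), for all 4409 OS (grey) and the 13 at lysosomal genes (labelled). Arsa, Npc2 and Asah1 lie near the origin and the 4 OS of Lipa between 4021 and 4694 on the vertical axis.

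The 26 lysosomal genes without a common OS had a median distance of 108 kb from the gene to the nearest one. Ctsd, for the aspartyl protease cathepsin D, lay just outside the limit: OS number 1249, with 1 WGATAR match, was 10354 bp upstream of its TSS, and no other protein-coding TSS was nearer. At Hexa, the farthest OS inside the limit, the distance was 1510 bp. A window of 50 kb added 5 genes, Ctsd, Ctsl, Gusb, Gla and Acp2, and gave 14 of 35, while the share of other genes rose to 27.7%. Of these, only Ctsd and Ctsl (cathepsin L, with OS number 1317 27998 bp upstream and 2 WGATAR matches) were the gene with the nearest TSS. The OS near Gusb, for β-glucuronidase, was 1981 bp from the TSS of Crcp. Galc, Gnptab, Idua, Ctsz and Ppt1 lay 415 to 766 kb from their nearest OS, and the X-linked genes Lamp2 and Ids 3603 and 4020 kb. Smpd1, Psap, Arsb, Naglu, Glb1, Man2b1, Neu1, Ctsb, Ctsh, Tpp1, Scarb2, Mcoln1, Acp5 and Tfeb fell between, at 54.5 to 282 kb. Neu1, for the sialidase, was 86.1 kb from OS number 9, one of the earliest of the list. Ctsb, the cathepsin B gene, was 54.5 kb from OS number 386.

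A further 102 lysosomal genes were listed by role. Of these, 19 (18.6%, Wilson 95% interval 12.3 to 27.3) had a common OS, beside the 13.7% of genes outside the 35. Hydrolases accounted for 10 of the 19, out of 27 listed, and membrane proteins for 4 of 25. Of the subunits of the proton pump, which acidifies the lysosome, 1 of 18 had an OS, of the sorting receptors and sorting complexes 1 of 14, and of TFEB relatives and nutrient-sensing genes 3 of 18. The plot of shares sets these lists beside all other genes.

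**Figure D5:**
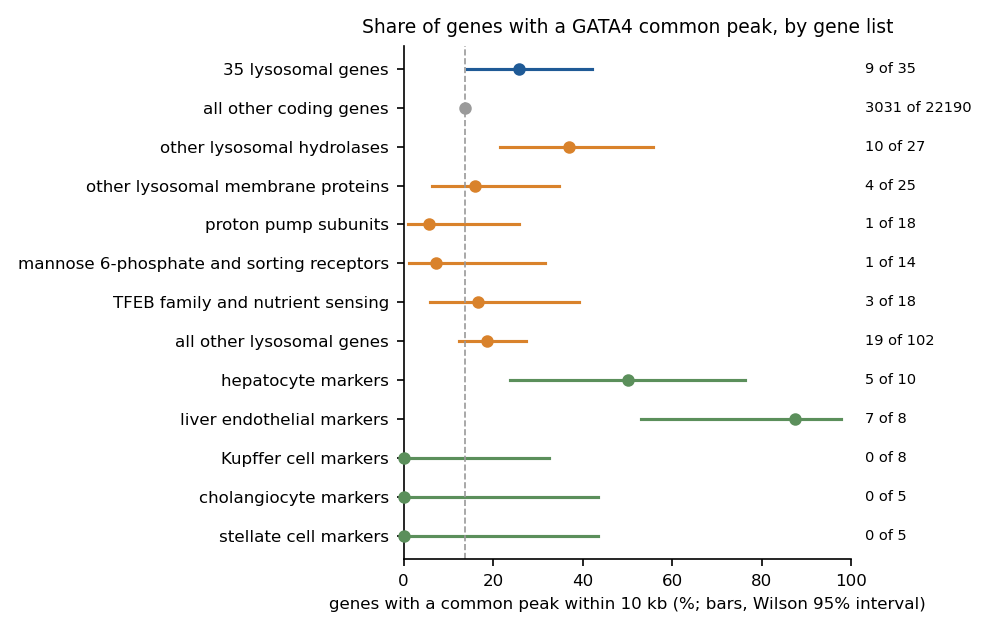
Percent of genes with a common OS within 10 kb (points, with Wilson 95% intervals as bars and counts at the right) for the 35 lysosomal genes, all other protein-coding genes (dashed line at 13.7%), the further lysosomal lists and liver cell markers. The 35 genes stand at 25.7%, the other hydrolases at 37.0% and the proton pump at 5.56%.

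Of the further genes, 4 had an OS within 1 kb of their TSS: Pla2g15, a lysosomal phospholipase (OS 2869, 109 bp upstream), Vps18, of the complexes that fuse vesicles with lysosomes (OS 4140, 115 bp upstream), Laptm4b, a membrane protein (OS 3986, 142 bp upstream), and Cln8 (OS 1017, 614 bp upstream). Arsg, for arylsulfatase G, had 4 OS in its introns, of which OS 3723 was nearer to the TSS of Slc16a6 (4227 bp) than to that of Arsg (4451 bp). Hyal1, for a hyaluronidase, had 3 OS in its window, yet each of them was nearer to the TSS of another gene, Hyal2 or Ifrd2. The OS counted for the hydrolase gene Fuca1, also named after its values were seen, lay 80 bp from the TSS of Cnr2 and 8997 bp from that of Fuca1. Ctsk and Ctss, neighbouring cathepsin genes named after their values were seen, shared a single OS, number 3985, so the gene counts are not independent of each other.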

How the data were processed

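Before deposition, the authors aligned the reads with Bowtie 0.12.7 to mm9, kept uniquely placed reads, called peaks with SPP and with MACS2 2.0.10 against the merged input, set thresholds by IDR and intersected the lists with bedtools 2.16.1. The deposited score is 1000 for every peak and carries no information on strength, so the earlier 50% of a list was taken by position. Other deposited values are positions.

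Positions were turned to 1-based and assigned by midpoint to genes of GENCODE M1 on NCBI Build 37, the same build. Gene IDs that shared a symbol were merged where they overlapped (96 IDs), and 46 others were left out. All listed symbols matched, 6 by an older name (Tfeb as Tcfeb). No test was run, since 1 pooled sample has no replicate spread. Shares have Wilson intervals at 95%. Motifs were exact matches on both strands, with a palindrome counted once. The members, gene lists and alternatives were chosen with earlier results of these data known. All 35 genes were to be named, the further genes only with an OS within 1 kb of the TSS or with 3 or more OS. Python 3.11.15, pandas 2.3.3, numpy 2.4.6, scipy 1.17.1, pysam 0.24.0, samtools 1.23.1 and matplotlib 3.10.9 were used, and 400 simulated queries of each kind were all answered correctly.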

Additional observations from a re-analysis of the deposited data

How the results depend on the processing

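The same 9 lysosomal genes had a peak with a window of 5 kb, any overlap of 1 bp, the SPP list, the longest coding transcript or only the gene with the nearest TSS, and the gene body alone lost Hexa. A window of 50 kb gave 14 genes with 21 OS (4.56 per Mb), and the first 50% of the list 5 genes with 5 OS, which lost Gaa, Lipa, Manba and Npc1. The share of other protein-coding genes with an OS was 11.3% at 5 kb, 7.67% in the gene body, 27.7% at 50 kb, 14.5% with the SPP list, 17.4% with the MACS2 list, 13.2% with the longest transcript, 7.22% in the first 50% of the list and 9.88% with the nearest TSS only. WGATAR was in 100% of the 5 lysosomal OS of the first 50% of the list. The matching share of other OS was not computed, so this value has no background. In the central 100 bp WGATAR was in 76.9% of the lysosomal and 74.3% of the other OS, and in 500 bp in 84.6% and 89.6%. A limit of 5 kb put 53.8% of the lysosomal and 27.2% of the other OS near a TSS. The lysosomal OS were taken for lying at a gene and the other OS were not, so these shares are not like for like. A reciprocal overlap of 50% left 30.8% of the lysosomal OS and 18.0% of all SPP peaks shared with MACS2. The MACS2 list gave 11 lysosomal genes with 18 peaks (9.98 per Mb), and the further lysosomal genes went from 19 to 14 at 5 kb, 21 with the SPP list and 27 with the MACS2 list. No paired analysis was possible because the ChIP is 1 sample. Without read counts, depth could not be weighed.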

Other observations

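The E-box CACGTG, the centre of the element that TFEB binds, was in the promoter (250 bp before to 50 bp after the TSS of the longest coding transcript) of 10 of the 35 lysosomal genes (28.6%, Wilson 95% interval 16.3 to 45.1) and in 7.77% of the promoters of the other protein-coding genes. Lamp1 had 4 matches, Hexa, Gla and Mcoln1 2 each, and Arsa, Gaa, Ctsb, Ctsd, Glb1 and Naglu 1 each. The Gaa match is not the E-box of OS 2396, which lies downstream of this promoter window. Among the genes with a common OS 4 of 9 had the E-box, and among those without one 6 of 26, with Wilson 95% intervals that overlapped (18.9 to 73.3% and 11.0 to 42.1%). The CLEAR palindrome, the longer TFEB element that extends the E-box on both sides, was in 0 of the 35 promoters (Wilson 95% upper bound 9.89%) and in 0.392% of the others. WGATAR was in 6 of the 35 promoters (17.1%, Wilson 95% interval 8.10 to 32.7) and in 26.9% of the others, a share inside that interval. Of the 9 genes with a common OS only Npc2 had it there, and of the 26 without one 5 had it. The Wilson 95% intervals of these 2 shares overlapped (1.99 to 43.5% and 8.51 to 37.9%).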
